A study of Mus musculus with 2 samples.

Results

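The cells described here are the beta cells with the least RNA for 3 genes of the mature beta cell, Ucn3, Mafa and Slc2a2. A barcode counted as a beta cell with at least 500 detected genes, at least 5000 UMIs (unique molecular identifiers, which count captured RNA molecules), a mitochondrial share of at most 20%, at least 15% of UMIs from the insulin genes Ins1 and Ins2, and Gcg, Sst and Ppy each under 2%. For each such cell the UMIs of the 3 genes were summed per 10000 UMIs other than Ins1 and Ins2, and the lowest 10% of each library were taken. These are 859 cells, 510 from the saline library and 349 from the CDS library, of 8598 beta cells and 19721 barcodes. They are called low-maturity cells below and were compared with the 859 cells in the highest 10% of the same libraries, the high-maturity cells. Because the 3 genes chose both sets, every difference between them is a description and carries no test.

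Islets came from mice labelled DIO, which received saline or 10 mg/kg of an agent labelled CDS over 2 weeks. The pancreas was digested with collagenase and islets were picked by hand under a stereomicroscope before droplet sequencing of RNA 3' ends. Strain, sex, age and the number of mice are not given in the labels, nor whether CDS is the alpha2A-adrenergic antagonist that the series title names. With a single library per treatment (n = 1) nothing could be checked between replicates, cells do not serve as replicates, and all 95% intervals cover counting error only.

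A mature beta cell senses glucose by metabolising it. In rodents glucose enters through the transporter GLUT2, encoded by Slc2a2, and its breakdown raises ATP, closes potassium channels, opens calcium channels and releases insulin granules. Mafa encodes a transcription factor that drives Ins1, Ins2 and genes of glucose sensing late in beta cell maturation, and Ucn3 encodes urocortin 3, a peptide released with insulin that makes neighbouring delta cells secrete somatostatin. All 3 genes are known to be low in immature beta cells and to be lost in rodent models of obesity and diabetes, while insulin RNA can stay high.

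The promoters of Ucn3 and Slc2a2 are shown because these genes define the cells. Both hold the homeodomain core TAAT, a letter pattern that PDX1 and NKX6-1 are known to bind, and both of those factors are described further on. The sequences are the 250 bases before the RefSeq start in GRCm38.p6, 5' to 3' on the gene's strand, with TAAT on either strand in capitals. The Ucn3 promoter lies at chr13:3945350-3945599 on the minus strand and has 2 matches. The Slc2a2 promoter lies at chr3:28697653-28697902 on the plus strand and has 1 match. At least 1 match occurs in 54.9% of 32851 RefSeq promoters of this length, so the match describes these letters only.
Ucn3: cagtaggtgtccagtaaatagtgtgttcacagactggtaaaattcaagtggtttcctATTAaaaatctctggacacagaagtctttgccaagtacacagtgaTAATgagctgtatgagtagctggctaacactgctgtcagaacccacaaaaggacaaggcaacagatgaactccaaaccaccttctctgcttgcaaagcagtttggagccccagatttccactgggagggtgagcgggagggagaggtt
Slc2a2: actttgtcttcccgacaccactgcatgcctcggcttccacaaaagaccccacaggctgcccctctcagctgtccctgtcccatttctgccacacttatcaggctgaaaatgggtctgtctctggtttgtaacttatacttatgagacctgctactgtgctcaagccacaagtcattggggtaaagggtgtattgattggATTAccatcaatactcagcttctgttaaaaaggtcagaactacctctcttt

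Values of the score formed 1 continuous range in each library, with no gap at either limit. In the saline library 335 of the 510 low-maturity cells had no UMI of the 3 genes, the highest member scored 0.860 (0.859697) and the next beta cell above scored 0.860067. In the CDS library 267 of 349 were at 0, the highest member scored 0.522 and the next cell 0.524. The high-maturity cells began at 14.1 in saline and 10.6 in CDS, against medians over all beta cells of 4.59 and 3.10. The limit was therefore lower in the CDS library: 15.9% of its beta cells (exact Clopper-Pearson 95% interval 14.7 to 17.2) lay at or below the saline limit. Over all beta cells, CDS over saline ratios of level (UMIs per 10000 non-insulin UMIs) were 0.680 for Ucn3 (0.656 to 0.705), 0.804 for Mafa (0.785 to 0.823) and 0.686 for Slc2a2 (0.667 to 0.705).

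**Figure D1:**
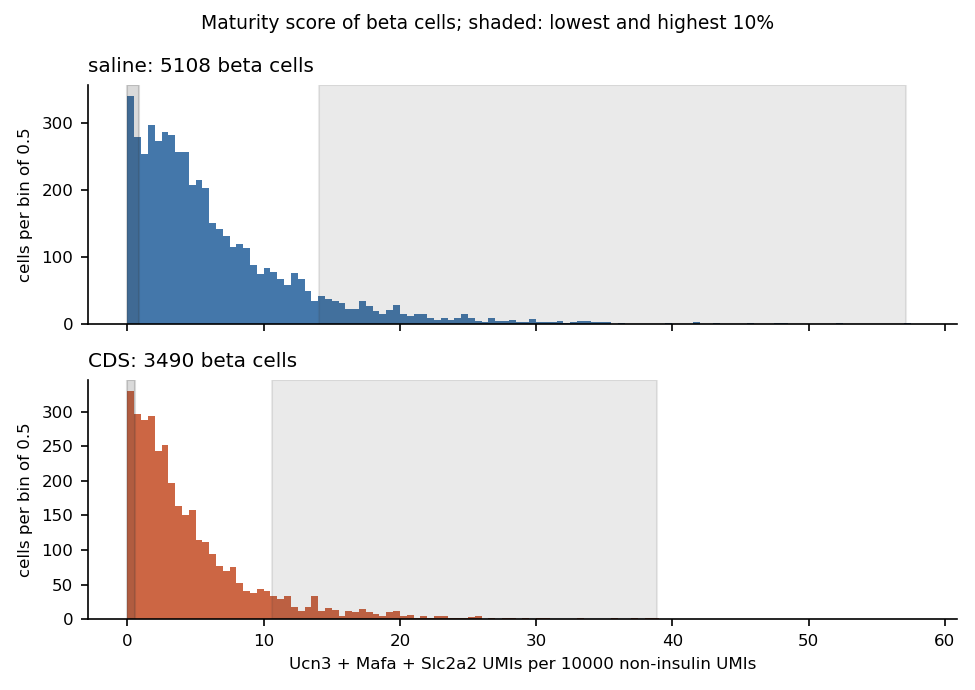
Number of beta cells (vertical axis, bins of 0.5) by maturity score, the UMIs of Ucn3, Mafa and Slc2a2 per 10000 non-insulin UMIs (horizontal axis), for 5108 saline cells (upper panel) and 3490 CDS cells (lower panel). The dark shading marks the low-maturity cells and the light shading the high-maturity cells; the distribution runs on through both limits.

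In the saline low-maturity cells the 3 genes were near or below their level in barcodes that should lack them. Summed over the 510 saline cells, Ucn3 had a level of 0.115 (exact Poisson 95% interval 0.0886 to 0.146), Mafa 0.118 (0.0917 to 0.150) and Slc2a2 0.0781 (0.0570 to 0.105). In 2101 lymphoid barcodes of that library, which should lack these genes and had a median of 1974 UMIs, the levels were 0.108, 0.226 and 0.120. The 349 CDS cells had 0.0594 for Ucn3, 0.0594 for Mafa and 0.0390 for Slc2a2, and the 35 lymphoid barcodes there were too few for a comparison. High-maturity cells had 2.56, 10.8 and 6.70 in saline, and 1.64, 9.04 and 4.69 in CDS. These levels chose the cells and show only how far the rule set them apart.

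Each of the 3 genes could also be read in cells that it had not chosen. With the score made from the other 2 genes, Mafa was 5.41-fold lower in the lowest than in the highest 10% of saline cells and 6.47-fold lower in CDS, Slc2a2 4.33-fold and 4.77-fold lower, and Ucn3 2.64-fold and 2.41-fold lower. The 3 genes were thus low together in the same cells, with the smallest difference for Ucn3. When the UMIs of every cell were halved at random, with cells chosen by 1 part and measured in the other, the gene levels were 3.40-fold lower for Ucn3, 10.8-fold for Mafa and 8.83-fold for Slc2a2 in saline, and 3.71-fold, 15.6-fold and 8.37-fold in CDS. Only 50.6% of the saline and 52.4% of the CDS members were chosen again from those halved UMIs, so nearly as many members were replaced as kept at that depth.

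In saline the low-maturity cells had a median of 17108 UMIs (17107.5) against 14888 (14887.5) in high-maturity cells, and in CDS 25381 against 26897. Their shallow end reached lower: the 10th percentile was 8587 against 10615 UMIs in saline and 7356 against 14077 in CDS, where it was 15103 over all beta cells. Median mitochondrial shares were 2.25% and 2.90% in saline, and 1.30% and 1.66% in CDS. Scrublet, which scores a barcode against simulated mixtures of 2 cells, called 38 low-maturity and 22 high-maturity cells doublets in saline, and 11 and 2 in CDS; they were kept, as the rule does not remove them. No low-maturity barcode occurred in both libraries, and 25 barcodes did among all 19721.

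The rule admitted cells of both sets only with at least 15% of UMIs from Ins1 and Ins2, so cells with less insulin RNA could not be members and the insulin values are a description within that limit. Ins1 and Ins2 together made up a median of 33.2% of UMIs in low-maturity and 36.6% in high-maturity saline cells, and 39.2% and 38.7% in CDS. The spread was wider at low maturity: the 10th to 90th percentiles ran from 21.2% to 44.9% in saline, against 29.0% to 43.6% at high maturity, and from 20.96% to 54.6% in CDS, against 26.0% to 48.8%. Ins1 had a low over high ratio of level of 0.811 in saline and 0.852 in CDS. Ins2, the insulin gene shared with other mammals, had 0.883 in saline and 1.07 in CDS. Iapp, which encodes the co-secreted peptide amylin, had 1.02 and 0.956. For Ins2 the direction differed between the libraries. Adra2a, the alpha2A-adrenergic receptor that restrains insulin release, had a level of 0.521 in low-maturity and 0.547 in high-maturity saline cells, a ratio of 0.952 (0.804 to 1.13). In CDS its levels were 0.437 and 0.557, a ratio of 0.784 (0.659 to 0.931).

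Across the transcriptome, a gene was counted as measured with at least 100 UMIs over both sets of cells, and as higher or lower at a 1.5-fold difference in level. In saline 740 of 9676 measured genes were higher (7.65%) and 637 lower (6.58%) in low-maturity cells. In CDS 599 of 9490 were higher (6.31%) and 778 lower (8.2%). Of the 9252 genes measured in both, 378 were higher in both libraries (4.09%) and 432 lower in both (4.67%), and 8 went opposite ways (0.0865%). Among genes measured in both, the 378 make up 57.1% of the saline and 69.2% of the CDS genes that were higher, and the 432 make up 73.2% and 56.8% of those lower. The median log2 ratio of all measured genes was 0.01 in saline and -0.06 in CDS. These shares are the background for the counts of gene lists that follow. Since the rule used the same cells, nothing is read from the difference between a list and the background.

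**Figure D2:**
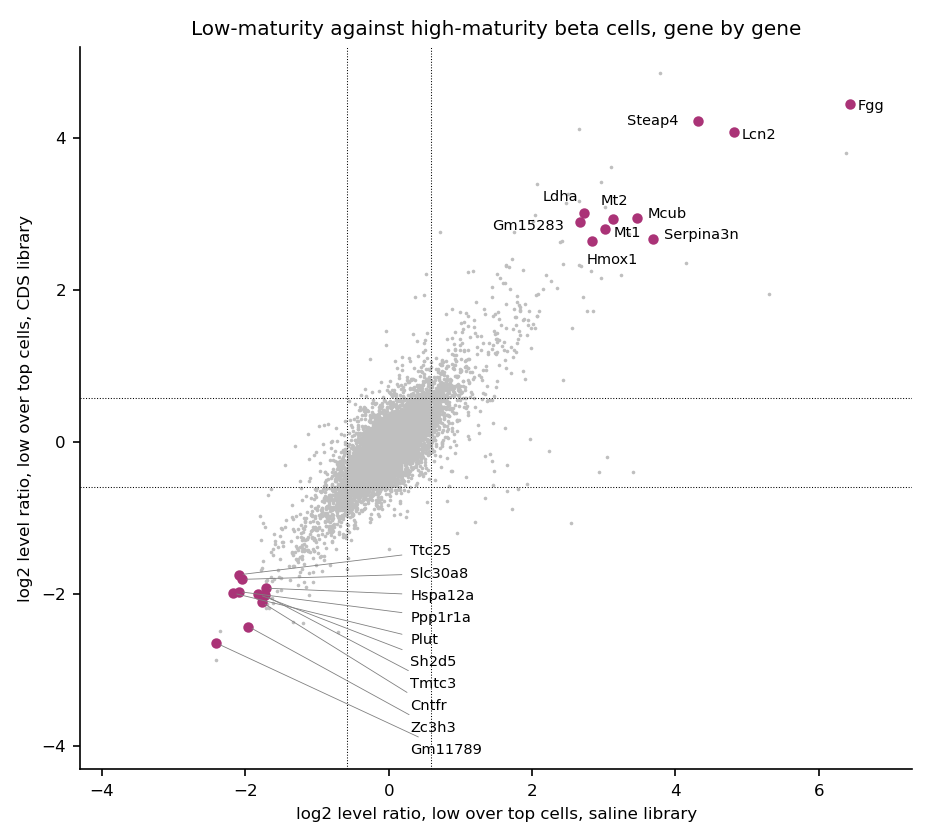
Log2 ratio of level, low-maturity over high-maturity cells, in the saline library (horizontal axis) and the CDS library (vertical axis), 1 grey point per gene measured in both. Dotted lines mark a 1.5-fold difference; named points are the 10 highest and 10 lowest genes, and Fgg is drawn at its lower bound in saline, at least 86.1-fold.

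The genes that were lowest in low-maturity cells, apart from the 3 of the score, include well-known parts of the mature beta cell. Slc30a8 encodes ZnT8, the transporter that loads zinc into insulin granules. Its level was 2.17 in low-maturity and 8.92 in high-maturity saline cells, 4.12-fold lower, and 1.45 and 5.08 in CDS, 3.49-fold lower. Ppp1r1a, an inhibitor of protein phosphatase 1 acting downstream of cyclic AMP, had 0.648 and 2.76 in saline and 0.665 and 2.60 in CDS. Both genes were low in most cells of the set rather than in a few: the median low-maturity cell had a Slc30a8 level of 1.69 in saline and 1.16 in CDS, against 8.15 and 4.33 in the median high-maturity cell. Cntfr, a receptor subunit for ciliary neurotrophic factor, was 3.42-fold and 4.30-fold lower, and Tmtc3 3.32-fold and 4.04-fold lower. Sh2d5, Ttc25 and Hspa12a were also among the 10, between 3.28-fold and 4.25-fold lower.

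The other 3 of the 10 lowest lie beside genes of the same group. Gm11789 (chromosome 11, 120526855 to 120531784, minus strand in mm10) overlaps Gcgr on the other strand and was 5.29-fold lower in saline and 6.25-fold lower in CDS. Plut (chromosome 5, 147228596 to 147271521, minus strand) overlaps Pdx1 on the other strand and was 4.52-fold and 3.95-fold lower. Zc3h3 lies 6202 bases from Mafa on the same strand of chromosome 15 and was 3.88-fold and 5.37-fold lower. How reads of overlapping genes on opposite strands were assigned is not given in the sources used here. Mixing of reads between the 2 antisense RNAs and the genes they overlap was not tested, nor was read-through between neighbours.

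Of 25 measured transcription factors of the beta cell, 7 were lower in both libraries and none was higher in both. Pdx1, the master regulator of pancreas and beta cell identity, had a level of 0.670 against 1.43 in saline and 0.650 against 1.498 in CDS, ratios of 0.469 (0.413 to 0.532) and 0.434 (0.382 to 0.492). Nkx6-1, which holds cells in the beta fate, had 1.46 against 2.98 and 1.24 against 2.69. Mlxipl encodes ChREBP, which switches on genes when glucose is high, and had 0.636 against 1.78 and 0.401 against 0.995. All 3 were between 2.05-fold and 2.81-fold lower in both libraries. Myt1, Mnx1, Nfatc2 and Ppargc1a, a coactivator of mitochondrial genes, were the other 4, between 1.52-fold and 2.18-fold lower. The remaining 18 did not pass the limit in both.

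Of 22 other measured maturity genes, 13 were lower in both libraries and 1, Sez6l, was higher. Besides Slc30a8 and Ppp1r1a these were Trpm5, a calcium-activated cation channel (2.94-fold lower in saline, 3.88-fold in CDS), Sytl4, a granule protein that binds RAB27 (2.82-fold and 3.45-fold), Ero1lb, a thiol oxidase of insulin folding (3.001-fold and 2.46-fold), and Gng12, a G-protein subunit (2.26-fold and 2.43-fold). Gjd2, whose connexin 36 joins beta cells electrically, was 2.14-fold and 2.06-fold lower. Cox6a2, Pfkfb2, Robo1, Robo2, Papss2 and Spock2 made up the rest, between 1.53-fold and 2.54-fold lower. The list's median log2 ratio was -0.79 in saline and -0.74 in CDS. The label of the cells thus describes 13 of the 22 genes in both libraries, and 8 did not pass the limit in both.

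Of 13 measured receptors that tune secretion, 5 were lower in both libraries and none was higher in both; 8 did not pass the limit in both. Glp1r, the receptor of the incretin GLP-1, had a level of 1.85 in low-maturity and 4.27 in high-maturity saline cells, and 1.399 and 3.57 in CDS. Gcgr, the glucagon receptor, had 0.245 and 0.795 in saline and 0.167 and 0.731 in CDS, which is 3.25-fold and 4.38-fold lower. Ffar1, a receptor for long-chain fatty acids, was 2.20-fold and 2.42-fold lower, P2ry1, a receptor for ADP, 1.78-fold and 2.00-fold, and Galr1, a galanin receptor, 2.22-fold and 2.57-fold. Among 22 genes of glucose entry, ATP-sensitive potassium channels and calcium channels, 2 were lower in both: Gpd2, the mitochondrial glycerol phosphate dehydrogenase (0.520 and 0.355 as ratios), and the calcium channel Cacna1a (0.595 and 0.640). Idh1 had ratios of 0.694 in saline and 0.409 in CDS, past the limit in CDS only; the difference between the libraries was not tested.

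Of 25 genes of the exocytosis machinery, Cadps and Cplx2, which prepare and clamp granules for fusion, were lower in both libraries. Cadps had ratios of 0.558 and 0.501, and Cplx2 of 0.607 and 0.582. Unc13a, a priming factor, was higher, at 1.68 and 1.57. Of 20 genes of granule content and prohormone processing, none was lower in both and 2 were higher. Pam, the enzyme that amidates peptides such as amylin, had a level of 19.1 against 8.37 in saline and 13.6 against 7.50 in CDS. Vgf, a granule protein of endocrine and nerve cells, had 0.660 against 0.213 and 0.810 against 0.161. In lipid synthesis 5 of 23 measured genes were lower in both and none higher, among them Acly, which makes cytosolic acetyl-CoA, at 8.73 against 16.6 in saline and 6.94 against 16.1 in CDS, and Srebf1, Insig1 and Scd2.

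Genes that immature or dedifferentiated beta cells are known for differed in both directions. Of 16 measured, 6 were higher and 3 lower in both libraries. Cd81, a tetraspanin reported on immature beta cells, had a level of 0.488 against 0.133 in saline and 0.765 against 0.159 in CDS. Few cells carried Cd81: 32 of 510 saline and 29 of 349 CDS low-maturity cells held 50% of its UMIs, and the median cell had none. Its level in the saline lymphoid barcodes was 0.571, and the part of other cells' RNA was not tested. Nupr1, a stress-induced nuclear protein, had 17.8 against 4.26 and 21.4 against 5.59. Ldha, Etv1 and Serpina7 were also higher in both. Sox4, a factor of endocrine development, was lower instead, at 1.61 against 5.43 in saline and 1.77 against 5.22 in CDS, as were Slc5a10 and Maob. In a list of 6 measured beta cell heterogeneity genes, Pyy and Rbp4 were among those higher and St8sia1 lower in both libraries.

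Metallothioneins stood among the 10 highest genes in both libraries and were spread over many cells. Mt1 and Mt2 encode small proteins that bind zinc and copper and are induced by metals, glucocorticoids and oxidative stress. Mt1 had a level of 37.2 in low-maturity and 4.59 in high-maturity saline cells, a ratio of 8.11 (7.76 to 8.47), and of 84.4 and 12.1 in CDS, a ratio of 6.99 (6.81 to 7.17). Mt2 had 10.7 and 1.22, a ratio of 8.74, and 16.7 and 2.19, a ratio of 7.65. The median low-maturity cell had a Mt1 level of 19.0 in saline and 55.3 in CDS, above the 90th percentile of high-maturity cells, 9.07 and 19.7. The least set of cells holding 50% of the Mt1 UMIs counted 70 of 510 cells in saline and 57 of 349 in CDS. Both genes lie on chromosome 8, 5514 bases apart and on the same strand. Their promoters are shown because the pair was so much higher together. Capitals mark the metal response element core, searched as TGCACNC and TGCGCNC on both strands, with overlapping matches counted once. The Mt1 promoter, chr8:94178839-94179088, plus strand, has 1 match. The Mt2 promoter, chr8:94172368-94172617, plus strand, has 3. At least 1 match occurs in 21.4% of the 32851 promoters, and at least 3 in 0.770%.
Mt1: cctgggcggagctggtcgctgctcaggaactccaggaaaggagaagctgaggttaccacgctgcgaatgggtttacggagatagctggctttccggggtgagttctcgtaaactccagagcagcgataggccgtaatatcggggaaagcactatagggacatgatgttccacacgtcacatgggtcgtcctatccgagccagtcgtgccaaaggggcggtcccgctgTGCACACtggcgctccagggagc
Mt2: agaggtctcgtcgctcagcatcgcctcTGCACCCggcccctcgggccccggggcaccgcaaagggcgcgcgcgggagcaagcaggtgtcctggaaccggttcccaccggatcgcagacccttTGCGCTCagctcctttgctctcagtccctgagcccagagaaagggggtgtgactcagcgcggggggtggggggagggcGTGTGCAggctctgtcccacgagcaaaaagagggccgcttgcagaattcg

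Of 25 measured metallothionein, antioxidant and iron genes, 10 were higher in both libraries and none lower. Hmox1, the haem oxygenase induced by oxidative stress, had a level of 0.941 against 0.131 in saline and 1.85 against 0.295 in CDS, ratios of 7.17 and 6.26. Few cells carried it: 19 of 510 saline and 10 of 349 CDS cells held 50% of its UMIs, and the median cell had none. Sod2, the mitochondrial superoxide dismutase, had ratios of 2.11 and 1.99, Gclc, which limits glutathione synthesis, 2.56 and 2.00, and the autophagy receptor Sqstm1 1.90 and 1.55. Gpx4, Gpx3, Prdx4 and Selenow, all enzymes or proteins of redox defence, were between 1.504 and 1.97 times as high.

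Of 17 measured glycolytic genes, 9 were higher in both libraries, none was lower in both and 8 did not pass the limit in both. Ldha encodes the lactate dehydrogenase that normal beta cells keep very low, and had a level of 0.502 against 0.0758 in saline and 0.986 against 0.122 in CDS, ratios of 6.62 (4.69 to 9.59) and 8.07 (6.28 to 10.5). Its low-maturity UMIs were concentrated, with 50% in 20 of 510 saline and 18 of 349 CDS cells, and the median cell had none. Slc2a1, the glucose transporter GLUT1, had 0.241 against 0.0451 and 0.414 against 0.0663, so its summed level was higher in the cells chosen for low GLUT2 RNA. Its UMIs were concentrated too, with 50% in 29 of 510 saline and 31 of 349 CDS cells, and the median cell had none. The saline lymphoid barcodes had a Slc2a1 level of 0.230, and the part of other cells' RNA was not tested. Bnip3, a mitophagy receptor induced by low oxygen, had 2.77 against 0.623 and 4.99 against 1.23. Pgk1, Tpi1, Pfkp, Pgam1, Pfkl and Aldoa were between 1.78 and 3.45 times as high. Gm15283, an RNA annotated antisense to Hif1a (chromosome 12, 73843039 to 73949814), was 6.36 and 7.45 times as high. Mixing of its reads with those of Hif1a was not tested. Mcub, which lowers mitochondrial calcium uptake, was 11.1 and 7.70 times as high. The promoters of Ldha (chr7:46845554-46845803, plus strand, the first of 2 RefSeq starts) and Bnip3 (chr7:138909507-138909756, minus strand) are shown with the hypoxia response core ACGTG in capitals on both strands, overlapping matches counted once. This Ldha start has 3 matches and Bnip3 1, while the other Ldha start (chr7:46846832-46847081, plus strand) has 0; at least 1 occurs in 16.6% of promoters and at least 3 in 0.256%.
Ldha: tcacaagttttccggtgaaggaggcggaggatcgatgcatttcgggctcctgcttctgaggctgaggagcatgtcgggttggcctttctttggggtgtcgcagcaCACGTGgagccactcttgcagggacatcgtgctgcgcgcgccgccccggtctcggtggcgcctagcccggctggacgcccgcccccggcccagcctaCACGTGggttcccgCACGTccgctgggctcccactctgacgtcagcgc
Bnip3: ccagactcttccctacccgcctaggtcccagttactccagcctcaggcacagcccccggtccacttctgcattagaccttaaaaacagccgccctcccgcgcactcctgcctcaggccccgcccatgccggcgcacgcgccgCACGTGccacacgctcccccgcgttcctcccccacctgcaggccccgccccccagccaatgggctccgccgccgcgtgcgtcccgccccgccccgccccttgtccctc

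Oxidative phosphorylation genes differed little. None of 56 nuclear ones passed the limit in both libraries in either direction, and their median log2 ratios were 0.12 in saline and 0.03 in CDS. Of the 13 mitochondrially encoded genes, 1, mt-Nd5, was lower in both at ratios of 0.655 and 0.641, and the median log2 ratio of the 13 was -0.36 in saline and -0.39 in CDS.

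In the integrated stress response and unfolded protein response, 9 of 42 measured genes were higher in both libraries and 1 was lower. Ddit3, which encodes the stress factor CHOP, had a level of 1.44 against 0.369 in saline and 1.73 against 0.520 in CDS, ratios of 3.90 (3.31 to 4.604) and 3.32 (2.91 to 3.80). Trib3, a CHOP target, had ratios of 3.13 and 2.29, and the factor Cebpb 2.36 and 2.63. Atf3, Ppp1r15a, Ern1, Creld2, Sdf2l1 and Slc3a2 were the others, between 1.51 and 2.34 times as high. Txnip, which glucose induces through ChREBP, was lower, at 8.11 against 15.8 and 5.65 against 16.2. Slc7a11, the cystine transporter, went opposite ways, with ratios of 1.76 (1.42 to 2.20) in saline and 0.584 (0.450 to 0.755) in CDS.

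Acute-phase and inflammatory genes had high ratios that rested on few cells. Of 16 measured genes of NF-kB inflammation and the acute phase, 12 were higher in both libraries and 1, Il6ra, was lower. Lcn2, which encodes the iron-binding protein lipocalin 2, had a level of 5.24 against 0.187 in saline and 15.9 against 0.944 in CDS, ratios of 28.1 (22.8 to 35.0) and 16.9 (15.5 to 18.4). In saline 8 of the 510 cells held 50% of its UMIs, in CDS 9 of 349, and the median cell had none. Fgg, a fibrinogen chain, had 305 UMIs in low-maturity saline cells and 0 in high-maturity ones, at least 86.1-fold higher against a floor of 3 counts, and 227 and 11 UMIs in CDS; 2 cells held 50% in each library. Steap4, a metalloreductase, had ratios of 20.0 and 18.7 with 13 and 15 such cells. Serpina3n, a protease inhibitor of the acute phase, was the most widely spread of these, at ratios of 12.9 and 6.36 with 43 and 23 such cells. Regulators of NF-kB had lower ratios: Nfkbia 2.89 and 3.08, Birc3 3.29 and 5.32, Relb 2.75 and 3.16. Of all 378 genes that were higher in both libraries, 16 in each library had 50% of their UMIs in at most 2% of the low-maturity cells; of the 432 that were lower, 1 in each had so few high-maturity cells.

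Interferon response and antigen presentation genes were higher in 9 of 20 cases in both libraries, with none lower. Ifit1, an interferon-induced antiviral protein, had ratios of 6.78 in saline and 3.30 in CDS, Bst2 3.20 and 4.94, and Ifi27 3.11 and 2.83. For Ifit1, 11 of 510 saline and 14 of 349 CDS low-maturity cells held 50% of the UMIs, for Bst2 25 and 19, and the median cell had none of either. Bst2 is also 1 of 8 dendritic markers, whose sum was 0.477 against 0.176 in saline and 0.533 against 0.115 in CDS. In the saline lymphoid barcodes Bst2 had a level of 3.68 and Ifit1 of 2.32, against 0.387 for Bst2 in saline low-maturity cells. The part of other cells' RNA was not tested. The immunoproteasome subunits Psmb8, Psmb9 and Psmb10 were between 1.98 and 2.77 times as high, and the class I gene H2-D1 was 1.74 and 1.62 times as high. In apoptosis, p53 and senescence 2 of 14 were higher in both, Cdkn1a, the cell cycle inhibitor p21 (3.05 and 2.33), and Bcl2l1 (1.89 and 2.22), while the pro-apoptotic Bcl2l11 was lower (0.591 and 0.421). Among 20 immediate early genes 4 were higher (Ier3, Atf3, Jun and Klf6) and Arc was lower. None of 10 heat shock and none of 8 cell cycle genes passed the limit in both. Of 9 nuclear-retained RNAs, Neat1 was higher (1.94 and 1.68) and Rian and Mirg were lower.

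**Figure D3:**
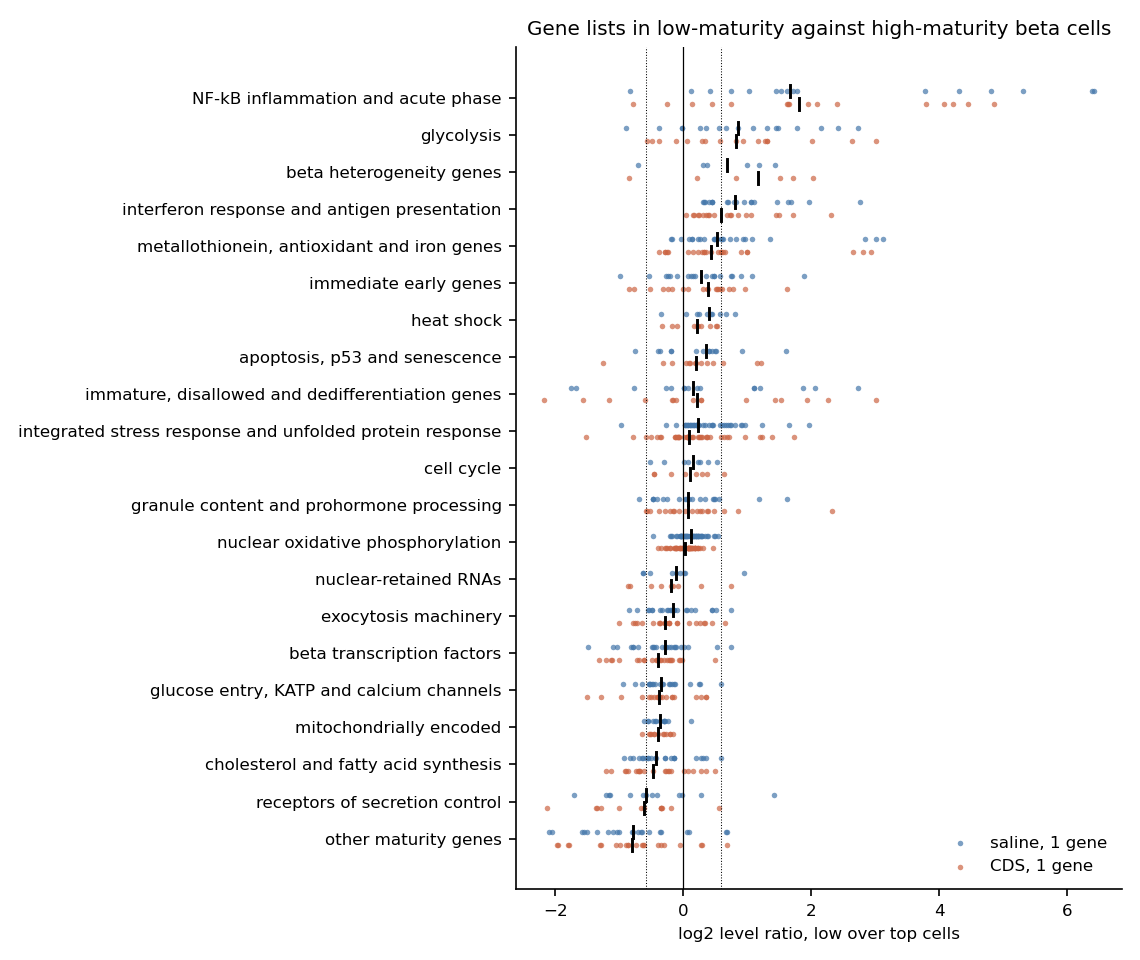
Log2 ratio of level, low-maturity over high-maturity cells, for every gene measured in both libraries (1 point per gene and library) in 21 gene lists; black ticks are list medians and dotted lines mark 1.5-fold. Acute-phase and glycolysis lists sit on the right and maturity genes and receptors on the left; Fgg in saline is drawn at its bound.

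For most of the genes plotted by band of score, the difference ran along the whole score. Over 10 equal bands of score in saline, Slc30a8 went from a level of 2.16 in the lowest band to 2.62 in the next, 4.09 in band 5 and 8.92 in the highest. Glp1r went from 1.85 through 3.13 to 4.27, and Mlxipl from 0.634 through 1.22 to 1.78 at bands 1, 5 and 10. In the other direction Mt1 went from 37.2 in the lowest band to 30.7, 18.2 and 4.59 in bands 2, 5 and 10 in saline, and in CDS from 84.4 to 91.7, 58.8 and 12.1, so that its highest CDS value, 94.2, was in band 3. Bnip3 in CDS was level over the lowest 3 bands, at 4.99, 5.14 and 4.996, and at 1.23 in the highest. The glycolysis list was not highest in band 1 either. Its median log2 level against all beta cells was 0.192, 0.284 and -0.658 in saline bands 1, 2 and 10. In CDS it was 0.195 in band 1, 0.293 in band 3 and -0.594 in band 10. Lcn2 differed: it went from 5.30 to 2.55, 0.582 and 0.187 in saline, and from 15.9 to 7.46, 1.28 and 0.944 in CDS in bands 1, 2, 5 and 10. Adra2a lay between 0.433 and 0.547 over the 10 saline bands, with its lowest value in band 3, and between 0.437 and 0.557 in CDS, with its lowest value in band 1 and its highest in band 10.

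**Figure D4:**
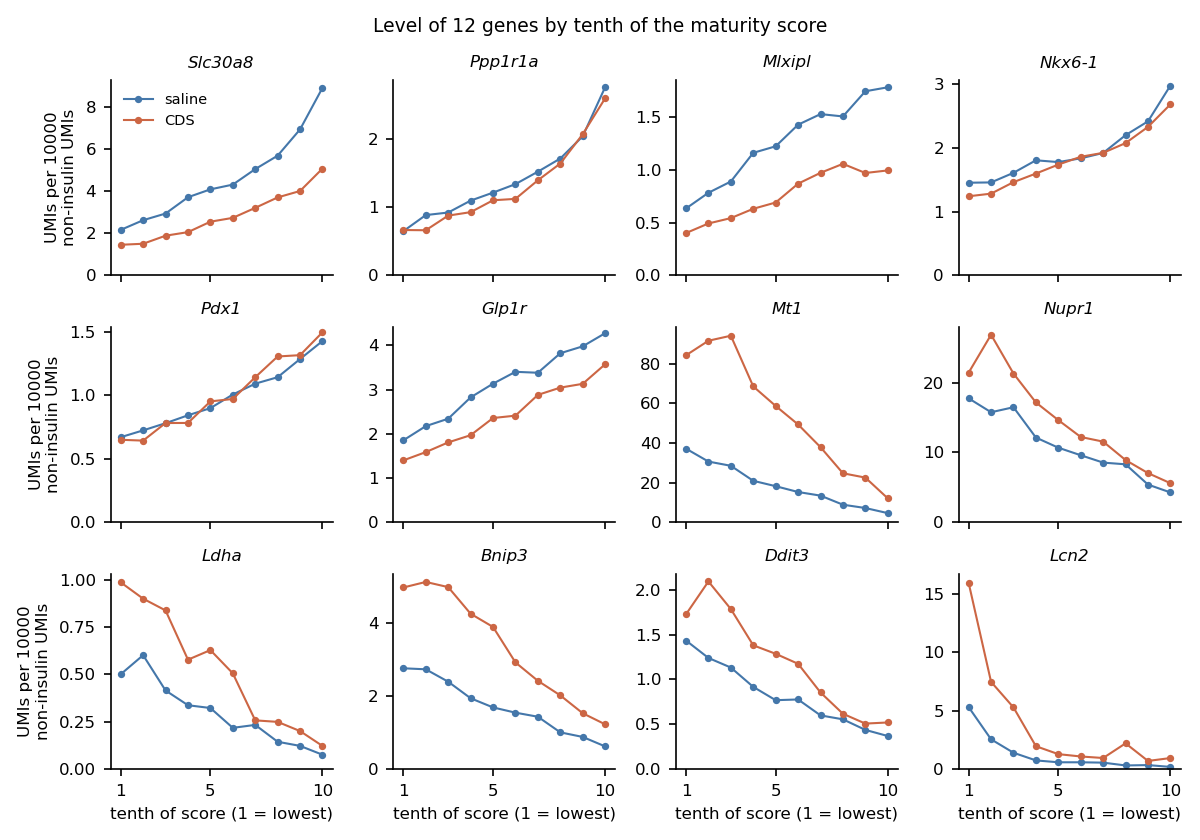
Level (UMIs per 10000 non-insulin UMIs, vertical axis from 0) of 12 genes in 10 equal bands of maturity score (horizontal axis, 1 is the lowest), saline in blue and CDS in orange. Slc30a8, Ppp1r1a, Mlxipl, Nkx6-1, Pdx1 and Glp1r climb with the score, while Mt1, Nupr1, Ldha, Bnip3, Ddit3 and Lcn2 decline, Lcn2 most steeply at the low end.

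Gene groups were then read cell by cell. For each of several gene groups, the beta cells in the top 10% of their library by summed level were marked. Cells high in Mt1, Mt2 and Mt3 were 23.7% of the saline low-maturity cells (exact Clopper-Pearson 95% interval 20.1 to 27.7) and 0.392% of the high-maturity cells, and 15.5% (11.8 to 19.7) and 0.860% in CDS. Cells high in 10 acute-phase genes were 27.3% and 3.53% in saline, and 25.8% and 2.87% in CDS. The limit for this group was low, a level of 1.99 in saline and 4.26 in CDS, and 1 UMI in thinned cells. A marked cell could therefore hold only a few such UMIs. Cells high in 16 genes of the integrated stress response were 16.9% and 2.35%, and 15.8% and 5.44%. Cells high in 23 glycolytic genes were 15.7% and 0.588%, and 14.3% and 2.29%. With every cell thinned to 2000 non-insulin UMIs the low-maturity shares were 23.8% and 17.003% for metallothioneins, 24.0% and 23.6% for the acute phase, 14.4% and 12.7% for the stress response, and 16.3% and 13.8% for glycolysis. The thinned high-maturity shares were 0.393% and 0.573%, 4.32% and 4.58%, 5.11% and 6.88%, and 0.786% and 2.29% in the same order, so the gap for the stress response was narrower than unthinned in both libraries. For 12 cell cycle genes 6.27% of low-maturity and 11.8% of high-maturity saline cells were marked unthinned, and 6.02% and 12.3% in CDS. The unthinned limit was low as well, a level of 0.851 in saline and 0.553 in CDS. A cell with 1 such UMI could pass it or not by its depth, so these shares depend on depth. Thinned shares were 10.4% and 8.84% in saline, but the thinned limit was 0 UMIs in both libraries. Cells without any such UMI were thus marked, and the thinned order cannot be read.

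Of the 510 saline low-maturity cells, 245 (48.0%) were in none of the metallothionein, stress response and acute-phase groups, 192 in 1, 65 in 2 and 8 in all 3. In CDS 190 of 349 (54.4%) were in none, 121 in 1, 36 in 2 and 2 in all 3. The share in none was 93.9% and 90.8% of high-maturity cells, and 75.5% and 75.6% of all beta cells. These counts follow from the 10% limit, and a cell in none of the groups can still have a high level. The median low-maturity cell had a summed metallothionein level of 23.95 in saline and 68.4 in CDS, under the limits of 68.3 and 198.6 but above the 90th percentile of high-maturity cells, 11.2 and 23.7.

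**Figure D5:**
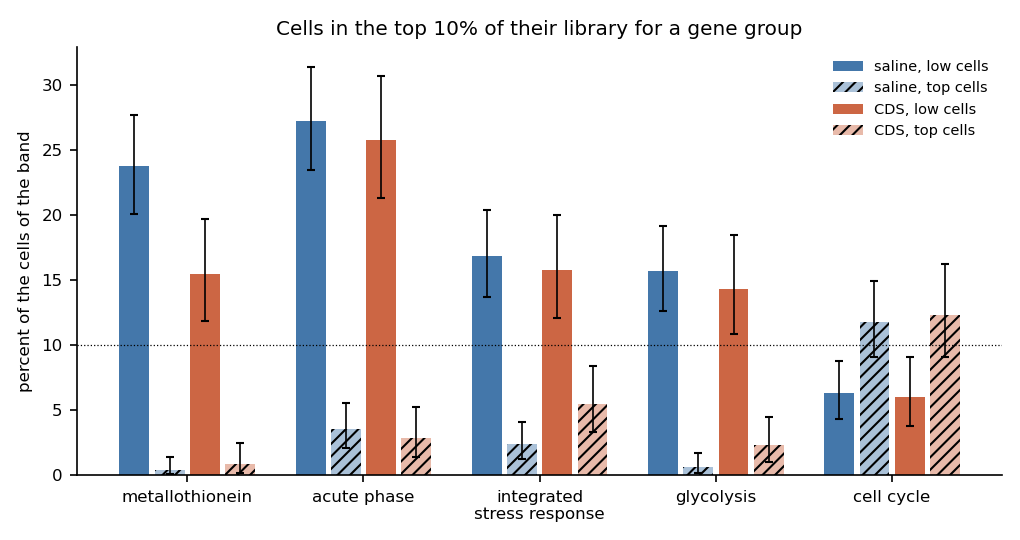
Percent of low-maturity (solid) and high-maturity cells (hatched) that are in the top 10% of their library's beta cells for the summed level of each gene group, in saline (blue) and CDS (orange); error bars are exact 95% binomial intervals and the dotted line is 10%. For metallothionein the low-maturity bars stand at 23.7% and 15.5% and the high-maturity bars at 0.392% and 0.860%.

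The cells were then checked for markers of other cell types. Summed levels of 12 endothelial, 12 stromal, 12 macrophage, 10 T cell and 9 B cell markers in low-maturity cells were 0.892, 0.590, 0.420, 0.375 and 0.571 in saline and 1.55, 0.416, 1.45, 0.0427 and 0.0650 in CDS, with the median low-maturity cell at 0 for each list. In high-maturity cells the same sums were 0.566, 0.131, 0.633, 0.260 and 0.756 in saline and 0.595, 0.0663, 1.39, 0.00524 and 0.0978 in CDS. The endothelial, stromal and T cell sums were thus lower there in both libraries. The B cell sum was higher there in both, and the macrophage sum in saline only. The endothelial sum passed 0.5% of non-insulin UMIs in 2 saline and 3 CDS cells. The 10 ductal markers summed to 14.4 against 8.64 in saline and 17.3 against 10.4 in CDS, and passed 0.5% in 15 and 16 low-maturity cells against 0 and 3 high-maturity cells. Among them Spp1, which encodes osteopontin, was 9.43 and 4.61 times as high, while Krt7 had ratios of 0.986 and 0.985. Hormone markers were higher in some cells. The 6 PP markers passed 0.5% in 29 saline and 35 CDS low-maturity cells; their summed level was 22.97 against 12.6 at high maturity in saline and 36.5 against 15.6 in CDS, while Sertm1 was at 0 in the low-maturity cells of both libraries and Aqp3 in all 4 sets. Pyy, the gene of peptide YY, had a level of 11.6 against 5.83 in saline and 25.5 against 7.79 in CDS, with 50% of its low-maturity UMIs in 14 and 9 cells and medians per cell of 4.48 against 4.62 and 6.70 against 7.36. The 8 delta markers summed to 8.44 against 4.06 and 7.66 against 2.68, and Rbp4 had 50% of its UMIs in 4 and 5 cells. The 10 alpha markers summed to 19.1 against 23.03 and 28.2 against 27.4. The 15 acinar markers summed to 11.4 against 2.62 in saline and 5.25 against 7.21 in CDS. The median cell had 1.77 against 1.92 in saline and 3.34 against 3.72 in CDS. The 90th percentile was 4.63 against 5.64 in saline and 15.3 against 9.20 in CDS. The acinar sum passed 0.5% in 5 low-maturity and 0 high-maturity saline cells, and in 5 and 4 CDS cells. The higher saline sum at low maturity thus did not lie in the typical cell. With Gcg, Sst and Ppy each held under 0.2%, 366 genes were higher and 445 lower in both libraries, and with doublets left out 130 of 133 named ratios stayed past the limit; beyond these values, the part of other cells' RNA in the differences was not tested.

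Between treatments, low-maturity CDS cells were compared with low-maturity saline cells, each set taken within its own library. Of 9702 measured genes, 661 were higher (6.81%) and 1792 lower (18.5%) in CDS, and in high-maturity cells 839 (8.89%) and 1366 (14.5%) of 9441. This split depends on scaling: with TMM factors, which shift the median log2 ratio by 0.21, 1333 were higher and 780 lower. Ratios are therefore read against the median of all genes, -0.19 on the log2 scale. The 5 highest CDS over saline ratios by the naming rule were those of Il1b (4.56, 3.19 to 6.68), Gm11808 (3.48), Lrg1 (3.25), Lcn2 (3.04) and Hist3h2ba (3.01). In high-maturity cells the same ratios were 2.61, 2.03, 1.55, 5.06 and 1.38. Il1b, the cytokine interleukin 1 beta, had 38 UMIs in the saline and 162 in the CDS low-maturity cells. In CDS 9 of the 349 cells held 50% of the Il1b UMIs, and the median cell had none. The macrophage marker sum was 0.420 in saline and 1.45 in CDS low-maturity cells, and 0.633 and 1.39 in high-maturity cells. The part of macrophage RNA in the Il1b ratios was not tested. For Lrg1, an acute-phase glycoprotein, 5 of the CDS low-maturity cells held 50% of the UMIs. The 5 lowest were Try5 (0.0553), Spink1 (0.0641), Arhgap15 (0.0940), Gm11867 (0.136) and Lrmda (0.266). Try5 and Spink1 are genes of acinar cells, and 1 saline cell held 50% of the UMIs of each; in cells thinned to 2000 UMIs, both log2 ratios were above 0, at 0.29 and 0.14. Arhgap15 had a level of 24.2 in the saline lymphoid barcodes against 0.415 in the saline low-maturity cells, and Gm11867 had 0.660 against 0.587. Saline had 2101 lymphoid barcodes and CDS 35, and the part of their free RNA in these ratios was not tested.

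Several lists differed between the libraries in both sets of cells. Oxidative phosphorylation had 56 measured nuclear genes, and 28 of them were higher in CDS in low-maturity cells (median log2 ratio 0.57) and 34 in high-maturity cells (0.68). Of the 13 mitochondrially encoded genes, 10 were lower in low-maturity (-0.65) and 11 in high-maturity cells (-0.69). Metallothionein, antioxidant and iron genes were higher in 8 of 25 in low-maturity and 10 of 26 in high-maturity cells, and glycolytic genes in 7 of 19 and 10 of 16. Of 26 transcription factors, 12 were lower in CDS in low-maturity cells (-0.52) and 10 in high-maturity cells (-0.41). These medians keep their sign when all ratios are shifted by 0.21 (TMM factors) or by -0.13 (all UMIs). Library and treatment cannot be told apart here, since each treatment is 1 library.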

How the data were processed

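The authors deposited raw UMI counts per gene and barcode for 2 droplet libraries, with 124343325 UMIs in the saline and 141191447 in the CDS library. Cell Ranger 7.1.0 made them, per the file headers; build mm10, Cell Ranger 7.1, Seurat 4 and an edgeR of unstated version are named in the submitters' processing notes. The protocol names 2 chemistries. The gene annotation and intron counting were not given in the sources used here.

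From these counts, UMIs were summed over the cells of a set and divided by their UMIs other than Ins1 and Ins2, times 10000. Ratios carry exact conditional Poisson and levels exact Poisson 95% intervals, for counting error only. A gene with 0 UMIs got a floor of 3 counts in the summed set. No p-values were computed. Ties in score were ordered by barcode. Lymphoid barcodes for the free-RNA level had at least 500 genes, at least 1000 UMIs, under 15% insulin, at least 5 T or B marker UMIs and at most 2 of macrophage, endothelial and stromal markers. Doublets were called with Scrublet in Scanpy 1.11.5 at 0.8% per 1000 barcodes and kept. Scripts ran in Python 3.11.15 (SciPy 1.17.1, NumPy 2.4.6, matplotlib 3.10.9, pandas 2.3.3) and R 4.3.3, with edgeR 4.0.16 and DESeq2 1.42.0 for scaling factors only; the ratios were tested on simulated data. GENCODE M21 of mm10 matched 32158 of 32285 gene IDs, and promoters came from RefSeq.

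Named genes were the 3 score genes, Ins1, Ins2, Iapp, Adra2a, the 10 highest and 10 lowest genes by the less extreme library among those with at least 200 UMIs in each, up to 3 per list, and the 5 highest and 5 lowest between libraries. Ribosomal protein, mitochondrially encoded and sex-linked genes and other cells' markers were left out of the ranking. Other list members and markers that were past the limit in both libraries are named after their values were seen. The members and lists were chosen with earlier results of these data known. Alternatives covered band width, comparison cells, doublets, other cells' RNA, thinning, halved UMIs, the score genes, cell and gene filters and scaling. Leaving out cells marked for metallothionein, stress response or acute phase, and limiting other hormones to 0.2%, were added after seeing the data. Some genes counted in the lists are not reported here by name.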

Additional observations from a re-analysis of the deposited data

Results flagged for a closer look

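Slc7a11, the cystine transporter, was called higher in low-maturity cells of the saline library and lower in those of the CDS library, at log2 ratios of 0.82 (258 and 124 UMIs) and -0.78 (95 and 173 UMIs). The difference between the libraries was not tested. Acinar genes went opposite ways as well: Cela3b had 1.65 in saline and -0.64 in CDS, Cela2a 1.35 and -0.74, Clps 0.95 and -1.19, and Pnlip 1.20 and -1.05. These were not tested either. In saline the median cell had an acinar marker sum of 1.77 at low and 1.92 at high maturity, so the typical low-maturity cell was not higher.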

How the results depend on the processing

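In the main setting 740 and 637 genes were higher and lower in low-maturity saline cells, 599 and 778 in CDS, and 378 and 432 in both. Given in that order, thinned cells gave 372, 270, 357, 322, 155 and 145, halved UMIs 464, 406, 361, 503, 202 and 234, and a minimum of 500 UMIs 258, 271, 197, 327, 135 and 197. A minimum of 20 UMIs gave 1640, 1100, 1430 and 1250 in the single libraries and 807 higher in both. A score without Slc2a2 gave 369 lower in saline, 492 in CDS and 224 in both. Against all other beta cells 225 were higher and 265 lower in both. Without cells high in metallothionein, stress response or acute-phase genes, 493 were higher and 392 lower in saline, and 230 and 270 in both. Counts under the other settings stayed within 1.5 times. Between libraries, 661 higher and 1792 lower became 1333 and 780 with TMM factors, 1252 and 851 with DESeq2 factors, 399 and 2755 per 10000 of all UMIs, and 874 lower with thinned cells.

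Directions turned for 5 of the genes named by rule. Thinning gave Try5 a log2 low over high ratio of -0.0545 in saline, and CDS over saline ratios of 0.29 for Try5 and 0.14 for Spink1. Leaving out the cells marked for metallothionein, stress response or acute phase removes cells high in these genes by construction. It gave -0.0144 for Lcn2 in saline and -0.59 in CDS, -1.84 for Fga and -0.25 for Lrg1 in saline. Of 133 named ratios past the limit, 96 stayed past it against all other beta cells and 101 with thinned cells. Without Slc2a2 113 stayed, without those marked cells 118, and under the rest 124 to 133. At 2000 UMIs 39.98% of saline and 50% of CDS cells scored 0, so thinned sets were drawn among ties by barcode.

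No paired analysis was possible because each treatment has 1 library. Leaving out a replicate was not run for the same reason. Treatment, animals and library cannot be told apart, and intervals take no account of spread between mice. A score of few molecules places single cells loosely.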
